A study of Mus musculus with 26 samples.

Results

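Resident alveolar macrophages were compared 1 day after lipopolysaccharide (LPS) and without treatment, in 7 of the 26 RNA-seq libraries of a mouse lung inflammation series. The members were taken from the sample labels: all 4 libraries named for resident alveolar macrophages with LPS at day 1, and all 3 libraries named for resident alveolar macrophages with no LPS. The question, as the series' design text gives it, is how the expression profile of these cells differs between day 1 and day 0 of the response. The other 19 libraries hold resident macrophages at later days and bone marrow-derived macrophages, and they enter here where they set the shared estimate of spread or where a later level of the resident cells is given.

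The LPS day 1 group holds resident alveolar macrophages from the lungs of mice given LPS into the trachea. The untreated group holds resident alveolar macrophages from the lungs of mice with no treatment, and the names of its libraries alone carry the word Young. No strain, genotype, age in weeks, sex, LPS dose, sorting gate or number of mice per library is given in the sources used here, so p-values measure the spread between libraries, which may be technical in part. All 3 untreated libraries, and no others in the series, have the name prefix 4645, while all LPS libraries of resident macrophages have the prefix 5341, so that the effect of LPS and of anything that came with the submission cannot be told apart by this comparison. For that reason the levels at LPS days 3 and 7, which share the prefix of LPS day 1, are given for some of the genes. For most genes they are not printed.

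Sequencing depth differed between the groups. The totals per library were 9176202 to 15073686 counts at LPS day 1 and 35780951 to 80816742 counts untreated. Pearson correlations of log2(CPM + 1), where CPM is a count scaled to 1000000 counts per library, were 0.884 to 0.961 among LPS day 1 libraries, 0.977 to 0.991 among untreated libraries and 0.874 to 0.936 between the groups. LPS day 1 replicate 3 stood apart from the other 3 on the second principal component. Among 3150 genes chosen for a mean of 5 to 20 CPM in untreated macrophages, 6.48%, 18.1%, 21.2% and 2.76% had 0 counts in LPS day 1 replicates 1 to 4, against 2.51 to 2.92% in the LPS day 3 libraries and 0.571 to 0.921% in the LPS day 7 libraries. By this choice of genes no untreated library is expected to hold a 0, and none did. Y-linked RNA was present in all 7 libraries (191 to 217 CPM at LPS day 1, 146 to 226 CPM untreated), and Xist, the RNA of the inactive X chromosome, was found in untreated replicate 1 alone, at 144 CPM.

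Alveolar macrophages live in the airspace, where they clear surfactant lipid and inhaled particles, and they are maintained by the cytokine GM-CSF and the nuclear receptor PPAR-gamma. LPS, a component of the outer membrane of Gram-negative bacteria, is bound by CD14 and MD-2 and sensed by TLR4. TLR4 signals through the adaptor MyD88 to NF-kB and through the adaptor TRIF to interferon regulatory factors, whose product, type I interferon, then acts back on the cells through its receptor. In mouse macrophages this response is known for cytokines and chemokines, for antiviral proteins and guanylate-binding GTPases, and for nitric oxide and itaconate.

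The promoters of 5 genes that rose are shown because they hold the letters searched for both arms of that pathway, the interferon arm and the NF-kB arm. Each window runs from 250 bases before to 50 bases after the gene's start, on the gene's own strand, in GRCm38.p6, and the sequences are credited to RefSeq. Capitals mark every match, on either strand, to the core GAAANNGAA of the interferon-stimulated response element (ISRE) or to the core GGGANNTTC of the kappa B element. Of the 27025 genes with a promoter in the table, 9.76% held the ISRE core and 4.47% the kappa B core in these windows.
Isg15 (chr4:156200769-156201068, minus strand): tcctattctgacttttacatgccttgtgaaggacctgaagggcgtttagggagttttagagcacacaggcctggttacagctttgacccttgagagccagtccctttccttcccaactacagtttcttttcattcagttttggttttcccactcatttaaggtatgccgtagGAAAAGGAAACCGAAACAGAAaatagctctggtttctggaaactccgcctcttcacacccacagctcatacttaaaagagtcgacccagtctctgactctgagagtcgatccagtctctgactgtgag
Ifit1 (chr19:34640639-34640938, plus strand): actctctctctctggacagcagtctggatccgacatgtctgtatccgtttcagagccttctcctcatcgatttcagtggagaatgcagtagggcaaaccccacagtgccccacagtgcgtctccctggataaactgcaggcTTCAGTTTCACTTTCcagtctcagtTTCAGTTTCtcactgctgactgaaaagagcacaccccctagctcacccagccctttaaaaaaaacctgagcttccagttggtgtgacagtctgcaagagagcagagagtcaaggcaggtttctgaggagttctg
Cxcl9 (chr5:92328030-92328329, minus strand): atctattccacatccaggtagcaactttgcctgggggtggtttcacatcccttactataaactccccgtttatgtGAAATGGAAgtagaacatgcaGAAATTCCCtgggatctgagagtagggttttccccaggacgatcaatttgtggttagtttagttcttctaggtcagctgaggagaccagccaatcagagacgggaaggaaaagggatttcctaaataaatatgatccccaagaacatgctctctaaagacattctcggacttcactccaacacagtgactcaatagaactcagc
Cxcl3 (chr5:90785851-90786150, plus strand): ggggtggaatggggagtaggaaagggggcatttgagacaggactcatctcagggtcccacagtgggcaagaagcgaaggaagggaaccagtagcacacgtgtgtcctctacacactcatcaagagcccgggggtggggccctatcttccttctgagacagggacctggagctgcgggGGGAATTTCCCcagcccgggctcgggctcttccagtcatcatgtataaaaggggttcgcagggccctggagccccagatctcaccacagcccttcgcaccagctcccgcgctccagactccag
Aoah (chr13:20793863-20794162, plus strand): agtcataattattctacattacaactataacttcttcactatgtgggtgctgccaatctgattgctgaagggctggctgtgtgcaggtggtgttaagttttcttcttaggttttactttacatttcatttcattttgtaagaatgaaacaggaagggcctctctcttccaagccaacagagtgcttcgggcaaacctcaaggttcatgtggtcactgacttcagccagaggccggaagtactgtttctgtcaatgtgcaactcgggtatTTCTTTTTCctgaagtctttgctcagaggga

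Isg15 held 3 ISRE cores that start 78, 72 and 66 bases before the gene's start and overlap. Ifit1 held 3 on the opposite strand, with first letters 109, 103 and 84 bases before the start. Cxcl9 held 1 ISRE core and 1 kappa B core, with first letters 175 and 154 bases before the start. Cxcl3 held a single near-palindromic stretch that matches the kappa B core on both strands, with first letters 73 and 71 bases before the start. The match in Aoah lies 19 bases after the start. A promoter was matched for 31 of the 40 called genes with the largest rises and for 11027 of the 17143 genes tested, in both cases under the 80% set for a comparison of shares, so that none is made. A match describes letters in a window and shows no binding.

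Expression differed between the groups in both directions. Of 17143 genes tested with edgeR, 552 (3.22%) were called higher and 525 (3.06%) were called lower at LPS day 1, together 6.28%, at an adjusted p under 0.05. A log2 fold change of 3 or more in size was reached by 151 of the genes called higher and by 120 of those called lower. Among the genes called higher, 522 had every LPS day 1 library above every untreated library, and among those called lower 502 had every LPS day 1 library below. The median log2 fold change over all genes tested was -0.20, and the genes called lower were longer, with a median exon length of 5557 bases, against 3494.5 bases for those called higher and 3574 bases for all genes tested. Leaving out 1 library moved these counts: 322 genes were called higher and 236 lower without untreated replicate 1, 333 and 273 without untreated replicate 2, and 435 and 307 without LPS day 1 replicate 2. By library number, the LPS day 1 libraries numbered 26 and 27 (replicates 1 and 2) alone gave 539 genes higher and 527 lower against untreated macrophages, and those numbered 7 and 8 (replicates 3 and 4) alone gave 295 and 130. The counts grew to 1048 higher and 1377 lower when the bone marrow-derived libraries with the fewest genes detected, day 1 replicate 3 and day 3 replicate 1, were left out of the shared estimate of spread.

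**Figure D1:**
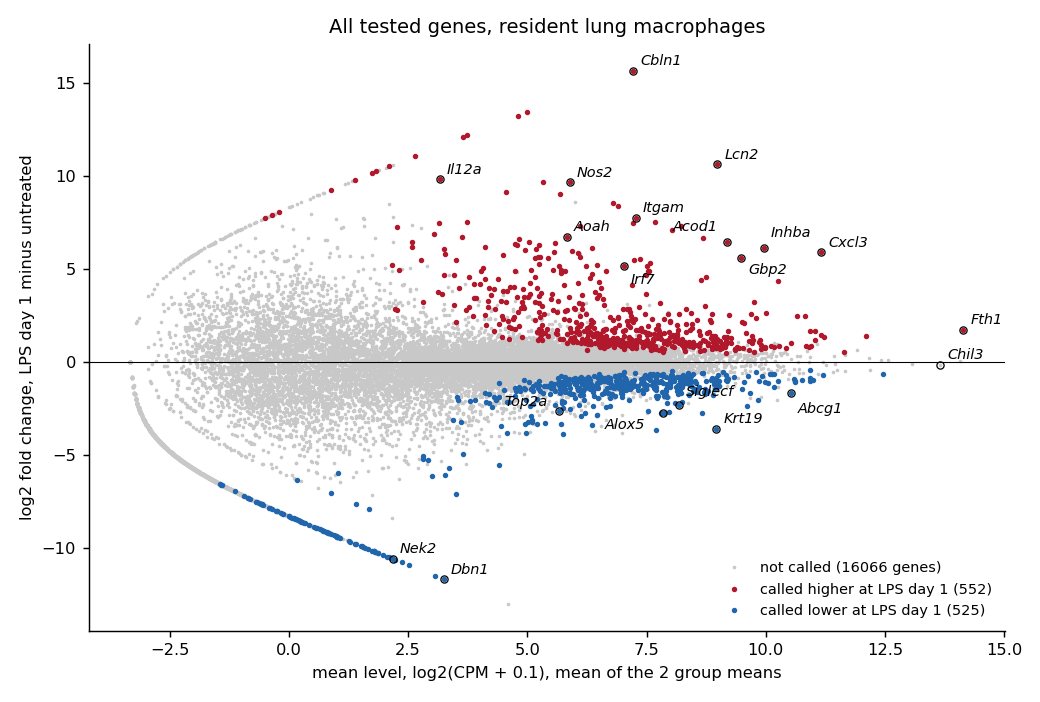
Log2 fold change of LPS day 1 over untreated resident macrophages (vertical axis) against the mean level as log2(CPM + 0.1) (horizontal axis) for the 17143 genes tested. Red points are the 552 genes called higher and blue points the 525 called lower, and the curved edge of points at the lower left is made of genes with 0 counts in all 4 LPS day 1 libraries.

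The 4 genes that mark this comparison were read in every library, as CPM on library sizes scaled by TMM (trimmed mean of M-values). Aoah, which encodes acyloxyacyl hydrolase, the enzyme that removes fatty acyl chains from LPS and so inactivates it, had 90.3, 98.8, 177 and 82.6 CPM in LPS day 1 macrophages and 1.05, 1.16 and 0.932 CPM in untreated macrophages (log2 fold change 6.73 ± 0.36, where ± is the standard error, adjusted p = 1.5e-12). Every LPS day 1 library lay far above every untreated one. The gene, ENSMUSG00000021322, lies on the plus strand at chr13:20794113-21036617 of GRCm38. Irf7, the interferon regulatory factor that amplifies type I interferon, had 236, 329.9, 234 and 209 CPM in LPS day 1 macrophages and 7.22, 9.26 and 4.58 CPM in untreated macrophages. Irf7 had a log2 fold change of 5.16 ± 0.40 (adjusted p = 1.4e-09). Nos2, the inducible nitric oxide synthase, had 151, 71.8, 186 and 64.6 CPM in LPS day 1 macrophages and 0.376, 0 and 0 CPM in untreated macrophages. Nos2 had a log2 fold change of 9.66 ± 1.29 (adjusted p = 3.2e-05). Its untreated level rests on 30 reads, all in replicate 1, so the size of the fold is uncertain while the groups do not overlap. Siglecf, a sialic acid-binding lectin that marks alveolar macrophages and eosinophils, had 84.7, 68.8, 79.9 and 148 CPM in LPS day 1 macrophages and 534, 447 and 466 CPM in untreated macrophages. Siglecf had a log2 fold change of -2.34 ± 0.57 (adjusted p = 0.013). All 4 LPS day 1 libraries were below the untreated ones, and the call was lost without each of LPS day 1 replicate 2 and untreated replicate 1 (adjusted p = 0.052 to 0.06). In bulk libraries, fewer cells of a type and less RNA per cell cannot be told apart.

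**Figure D2:**
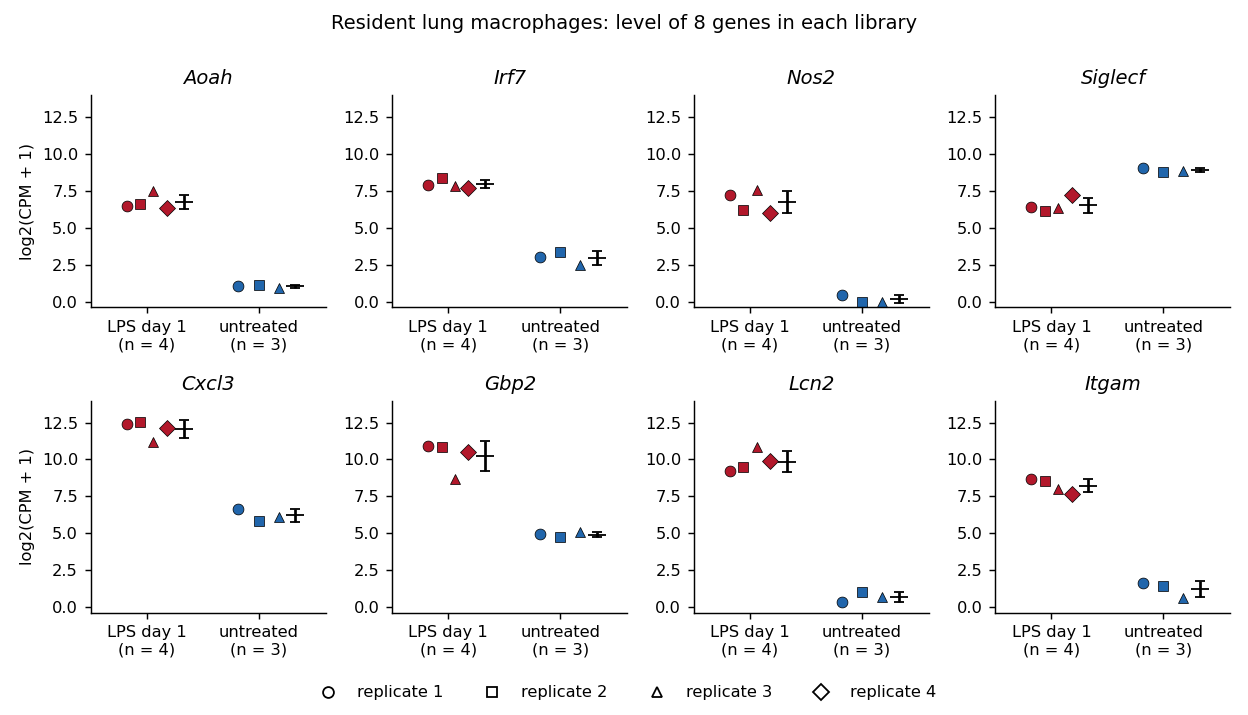
Level of 8 genes as log2(CPM + 1) in each library, LPS day 1 (red, n = 4) left of untreated (blue, n = 3), with symbols for replicates and a bar for the mean and SD. Of the 8 genes shown, Siglecf is lower at LPS day 1 and the other 7 are higher, and in each panel the groups do not overlap.

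The label of alveolar macrophages was checked against the defining markers. Chil3, which encodes the chitinase-like lectin Ym1, had 11341, 12043, 11163 and 14254 CPM in LPS day 1 macrophages and 13643, 11257 and 15723 CPM in untreated macrophages, an overlapping range. Chil3 had a log2 fold change of -0.15 ± 0.39 (adjusted p = 0.93). Itgax, the integrin chain CD11c, likewise overlapped (1867 ± 322 CPM at LPS day 1 and 1486 ± 224 CPM untreated, SD, n = 4 and 3). Fabp4, a fatty acid-binding protein, had 128, 91.8, 253 and 163 CPM in LPS day 1 macrophages and 80.1, 86.2 and 135 CPM in untreated macrophages and also overlapped. Pparg, the nuclear receptor that defines the cell type, had 113, 112, 169 and 192 CPM at LPS day 1 and 259, 196 and 266 CPM untreated, below every untreated library but not past the test. Pparg had a log2 fold change of -0.72 ± 0.34 (adjusted p = 0.22). Ear2, another of these markers, had 462, 607, 759 and 918 CPM at LPS day 1 and 1844, 1409 and 1979 CPM untreated. It was lower in every library without passing (log2 fold change -1.35 ± 0.44, adjusted p = 0.075). Defining markers were thus present in all 7 libraries. Pparg, Ear2 and Siglecf were lower in every LPS day 1 library than untreated. Car4 and Marco, given below, were higher in every one.

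Of the 22 genes of alveolar macrophage identity, 5 rose (22.7%), 5 fell (22.7%) and 12 did not pass the test. Of all genes tested, 3.22% rose and 3.06% fell. Only 2 or 3 identity genes rose when any library but LPS day 1 replicate 3 was left out, and 2 or 3 fell without LPS day 1 replicate 1 or 2 or untreated replicate 1 or 2. Their median log2 fold change was -0.50, and 11 of the 22 were below every untreated library in every LPS day 1 library, against 21.2% of all genes tested. Tgfbr2, the signalling receptor for TGF-beta that these cells need for their maintenance, fell to 106, 109, 160.4 and 198 CPM at LPS day 1, against 590.2, 446 and 338 CPM untreated. Tgfbr2 had a log2 fold change of -1.67 ± 0.21 (adjusted p = 3.9e-06). Krt19, a keratin, fell as well (75.8 ± 49.8 CPM at LPS day 1 and 917 ± 206 CPM untreated; log2 fold change -3.60 ± 0.96, adjusted p = 0.026). Other members rose: Slc7a2, a carrier of arginine and other cationic amino acids, had 3471, 2754, 3153 and 2920.3 CPM in LPS day 1 macrophages and 673, 663 and 318 CPM in untreated macrophages (log2 fold change 2.48 ± 0.49, adjusted p = 0.0019), and Lpl, lipoprotein lipase, had 6916, 8409, 4033 and 6374 CPM at LPS day 1 and 2459.6, 2568 and 2227 CPM untreated. Lpl had a log2 fold change of 1.41 ± 0.30 (adjusted p = 0.0035). Car4, the carbonic anhydrase of the cell surface, had 2989, 3212, 2375 and 2392 CPM at LPS day 1 and 481, 440.2 and 546 CPM untreated (log2 fold change 2.49 ± 0.71, adjusted p = 0.038), and Marco, a scavenger receptor for bacteria and particles, had 1887, 2145, 967 and 2043 CPM at LPS day 1 and 375, 201 and 288 CPM untreated. Marco had a log2 fold change of 2.61 ± 0.75 (adjusted p = 0.04). In all 4 of these genes the groups were fully apart. Calls were lost for Krt19 without each of LPS day 1 replicates 1, 2 and 3 and untreated replicates 1, 2 and 3 (adjusted p = 0.059 to 0.079), for Car4 without each of LPS day 1 replicates 1 and 2 and untreated replicates 1, 2 and 3 (adjusted p = 0.072 to 0.18) and for Marco without each of LPS day 1 replicates 1, 2 and 4 and untreated replicates 1, 2 and 3 (adjusted p = 0.058 to 0.2).

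Of 16 genes of LPS recognition and its first adaptors, 2 rose (12.5%), 2 fell (12.5%) and 12 did not pass, against 3.22% and 3.06% of all genes tested. Tlr4, the receptor, had 101, 61.6, 114 and 113 CPM at LPS day 1 and 158, 143 and 96.4 CPM untreated (log2 fold change -0.44 ± 0.32, adjusted p = 0.5), and Cd14, its co-receptor, had 1313, 1362, 776 and 962 CPM at LPS day 1 and 859.7, 607 and 939.96 CPM untreated (log2 fold change 0.46 ± 0.21, adjusted p = 0.2), both with overlapping groups. Besides Aoah, Irak3, which encodes a kinase-like inhibitor of this receptor's signalling, rose (119, 125, 171 and 117 CPM at LPS day 1, against 23.3, 29.1 and 32.4 CPM untreated; log2 fold change 2.23 ± 0.41, adjusted p = 0.0007). Cd180, a TLR4-related receptor, fell (13.2, 5.93, 4.58 and 7.23 CPM at LPS day 1, against 37.4, 33 and 27.5 CPM untreated; log2 fold change -2.08 ± 0.40, adjusted p = 0.0011). Among 18 other pattern receptors 3 rose and none fell. Clec4d and Clec4e, neighbouring C-type lectin receptors for mycobacterial glycolipid, were 2 of them: Clec4d had 272, 367, 184 and 161 CPM at LPS day 1 and 30.2, 25.6 and 46.3 CPM untreated (log2 fold change 2.85 ± 0.42, adjusted p = 4.9e-05), and Clec4e had 1418, 1309, 985 and 1105 CPM at LPS day 1 and 173, 294 and 392 CPM untreated. Clec4e had a log2 fold change of 2.07 ± 0.30 (adjusted p = 3.6e-05). Tlr2, a receptor for bacterial lipoproteins, was at 1117 ± 219 CPM at LPS day 1 and 1736 ± 119 CPM untreated and did not pass. Tlr2 had a log2 fold change of -0.64 ± 0.33 (adjusted p = 0.27).

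Suppressors of signalling were among the genes that rose in the NF-kB list. Of its 20 genes, 8 rose (40%) and 2 fell (10%), against 3.22% and 3.06% of all genes tested. The median log2 fold change of the list was 0.66, and 4 of its genes rose without untreated replicate 1. Socs3, a suppressor of STAT3 signalling, had 897, 876, 689.9 and 549 CPM in LPS day 1 macrophages and 89.4, 199.98 and 219 CPM in untreated macrophages. Socs3 had a log2 fold change of 2.15 ± 0.27 (adjusted p = 3.9e-06). Ikbke, a kinase that acts on interferon regulatory factors, had 169, 208, 145 and 117 CPM in LPS day 1 macrophages and 9.84, 14.1 and 11.4 CPM in untreated macrophages. Ikbke had a log2 fold change of 3.76 ± 0.25 (adjusted p = 1.5e-10). Tnip1, a ubiquitin-binding inhibitor of NF-kB, rose more modestly (321 ± 63.4 CPM at LPS day 1 and 117 ± 27.5 CPM untreated; log2 fold change 1.46 ± 0.20, adjusted p = 1.5e-05). Socs1, the suppressor of interferon receptor signalling, had 56.8, 77.6, 30.4 and 58.7 CPM at LPS day 1 and 1.7, 5.12 and 4.15 CPM untreated (log2 fold change 3.93 ± 0.97, adjusted p = 0.011), a call that was lost without untreated replicate 1 (adjusted p = 0.095). The classical early inhibitors did not pass: Nfkbia, which encodes I-kappa-B-alpha, was at 1146 ± 268 CPM at LPS day 1 and 1382 ± 422 CPM untreated (log2 fold change -0.27 ± 0.21, adjusted p = 0.55), and Tnfaip3, which encodes A20, was at 1014 ± 131 CPM at LPS day 1 and 1387 ± 271 CPM untreated. Tnfaip3 had a log2 fold change of -0.45 ± 0.21 (adjusted p = 0.22).

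Interferon-stimulated genes rose together. Of 30 antiviral genes 20 rose (66.7%, against 3.22% of all genes tested) and none fell. Their median log2 fold change was 3.52, against -0.20 over all genes tested. In 25 of the 30, every LPS day 1 library was above every untreated one, against 9.36% of all genes tested. Isg15, the ubiquitin-like modifier whose promoter is shown above, had 181, 308, 101 and 189 CPM in LPS day 1 macrophages and 3.98, 7.12 and 8.7 CPM in untreated macrophages. Isg15 had a log2 fold change of 4.88 ± 0.47 (adjusted p = 6e-08). Ifit1, which binds viral RNA lacking a full cap, had 93.3, 52.9, 44.8 and 87.1 CPM in LPS day 1 macrophages and 1.63, 1.94 and 0.678 CPM in untreated macrophages. Ifit1 had a log2 fold change of 5.61 ± 1.20 (adjusted p = 0.0035). Rsad2, the radical enzyme viperin, had 121, 107, 63.8 and 88.7 CPM in LPS day 1 macrophages and 1.06, 1.9 and 0.311 CPM in untreated macrophages. Rsad2 had a log2 fold change of 6.41 ± 0.77 (adjusted p = 4.3e-06). These 3 were at or below 8.7 CPM in every untreated library. Oasl2, of the oligoadenylate synthetase-like family, rose as well (215, 189.6, 74.4 and 172 CPM at LPS day 1, against 1.67, 2.59 and 2.68 CPM untreated; log2 fold change 6.14 ± 0.48, adjusted p = 1.4e-09), and so did Rtp4 (88.5, 98.5, 39.8 and 73.9 CPM at LPS day 1, against 1.56, 1.57 and 1.27 CPM untreated; log2 fold change 5.67 ± 0.61, adjusted p = 3.8e-07). Bst2, the virion tether tetherin, had 335, 437, 117 and 257 CPM at LPS day 1 and 33.4, 30.2 and 49.2 CPM untreated. Bst2 had a log2 fold change of 2.93 ± 0.39 (adjusted p = 9e-06). Zbp1, a sensor of Z-form nucleic acid, had 234, 238, 64.9 and 169 CPM at LPS day 1 and 11.6, 10.2 and 12 CPM untreated. Zbp1 had a log2 fold change of 3.97 ± 0.46 (adjusted p = 1.2e-06). In each of Isg15, Oasl2, Rtp4, Bst2 and Zbp1, LPS day 1 replicate 3 was the lowest of the 4. Ddx58, the RNA sensor RIG-I, did not pass (62.7 ± 17.8 CPM at LPS day 1 and 41.8 ± 7.58 CPM untreated; log2 fold change 0.58 ± 0.31, adjusted p = 0.28).

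The GTPases of the guanylate-binding and immunity-related families, which attack the vacuoles of intracellular pathogens, moved further. Of 16 tested, 13 rose (81.25%, against 3.22% of all genes tested) and none fell, with a median log2 fold change of 4.15. Gbp2 had 1928, 1819, 415 and 1429 CPM in LPS day 1 macrophages and 29, 25.1 and 32.5 CPM in untreated macrophages. Gbp2 had a log2 fold change of 5.60 ± 0.66 (adjusted p = 5.7e-06). Gbp3 had 422, 351, 88.5 and 317 CPM in LPS day 1 macrophages and 7.36, 6.97 and 5.73 CPM in untreated macrophages (log2 fold change 5.46 ± 0.62, adjusted p = 2.5e-06), and Gbp5 had 466, 388, 163 and 423 CPM in LPS day 1 macrophages and 8.7, 11.6 and 16.1 CPM in untreated macrophages. Gbp5 had a log2 fold change of 4.90 ± 0.60 (adjusted p = 6.5e-06). These 3 neighbours lie within chr3:142493978-142522344, chr3:142560026-142573209 and chr3:142620602-142638008 on the plus strand of GRCm38, and because they are close paralogs, reads could be split between them in counting. Ifi47, of the immunity-related family, had 231, 171, 78.3 and 212 CPM at LPS day 1 and 8.4, 6.37 and 11.7 CPM untreated. Ifi47 had a log2 fold change of 4.30 ± 0.52 (adjusted p = 2.3e-06). Replicate 3 was again the lowest LPS day 1 library in all 4 genes, and it still lay above every untreated library. Gbp8 did not pass (31.3 ± 13.5 CPM at LPS day 1 and 24.9 ± 1.89 CPM untreated; log2 fold change 0.33 ± 0.75, adjusted p = 0.91).

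Among 17 IRF and STAT factors 5 rose (29.4%, against 3.22% of all genes tested) and none fell, and 3 rose without untreated replicate 1 or 2. Irf9, a DNA-binding factor of the type I interferon response, had 116, 114, 68 and 102 CPM at LPS day 1 and 29.1, 35.6 and 43.2 CPM untreated. Irf9 had a log2 fold change of 1.48 ± 0.28 (adjusted p = 0.00088). Irf1, which is induced by interferon-gamma and by NF-kB, had 612, 592, 255 and 789.6 CPM at LPS day 1 and 61.6, 144 and 205 CPM untreated (log2 fold change 2.04 ± 0.48, adjusted p = 0.0092), and this call was lost without each of untreated replicates 1 and 2 (adjusted p = 0.055 to 0.09).

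Genes of MHC class I presentation, which displays peptides of the cell interior, rose in nearly the whole list. Of 15, 14 rose (93.3%, against 3.22% of all genes tested) and none fell. In 14, every LPS day 1 library was above every untreated one, against 9.36% of all genes tested. B2m, the light chain common to class I molecules, had 3481, 4576, 2392 and 2887 CPM in LPS day 1 macrophages and 1062, 1089.8 and 1531 CPM in untreated macrophages. B2m had a log2 fold change of 1.44 ± 0.19 (adjusted p = 1e-05). Tap1, part of the peptide transporter, had 490.4, 392, 249.7 and 427 CPM at LPS day 1 and 69.2, 79.3 and 83.7 CPM untreated. Tap1 had a log2 fold change of 2.33 ± 0.35 (adjusted p = 4.9e-05). Tapbp, which loads peptides, had 1515, 1558, 612 and 1043 CPM at LPS day 1 and 249, 243 and 299 CPM untreated (log2 fold change 2.16 ± 0.26, adjusted p = 2.2e-06), and Psme2, a subunit of the proteasome activator, had 659, 857, 275 and 457 CPM at LPS day 1 and 65.7, 75.9 and 95.8 CPM untreated. Psme2 had a log2 fold change of 2.83 ± 0.39 (adjusted p = 1.6e-05). Nlrc5, the transactivator of class I genes, had 133, 118, 39.6 and 145 CPM at LPS day 1 and 26.6, 34.9 and 25 CPM untreated. Nlrc5 had a log2 fold change of 1.92 ± 0.38 (adjusted p = 0.0017). Erap1, a peptide-trimming enzyme, was the member that did not pass (139 ± 35.4 CPM at LPS day 1 and 92.7 ± 17.8 CPM untreated; log2 fold change 0.58 ± 0.25, adjusted p = 0.17).

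MHC class II and costimulatory genes showed no such pattern, with 1 of 15 higher (6.67%), 2 lower (13.3%) and a median log2 fold change of -0.66. Of all genes tested, 3.22% were higher and 3.06% lower. Cd274, the inhibitory ligand PD-L1, rose (471, 364, 291 and 439 CPM at LPS day 1, against 217, 169 and 144 CPM untreated; log2 fold change 1.14 ± 0.24, adjusted p = 0.0023). Cd83, which stabilises class II molecules at the cell surface, fell (44.8, 67.2, 75.4 and 83 CPM at LPS day 1, against 274, 432 and 600.2 CPM untreated; log2 fold change -2.69 ± 0.49, adjusted p = 0.0008). H2-Aa, a class II chain, had 132, 195, 1038 and 586 CPM in LPS day 1 macrophages and 478, 873 and 1311 CPM in untreated macrophages, with overlapping groups (log2 fold change -0.86 ± 0.66, adjusted p = 0.54). The LPS day 1 libraries split for H2-Aa, since replicates 1 and 2 were below every untreated library and replicates 3 and 4 were not.

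Of 21 cytokines tested, 2 rose (9.52%, against 3.22% of all genes tested) and none fell. With an unadjusted p under 0.05, 7 were higher, and DESeq2 called 5 higher. Il1b, the secreted inflammasome substrate interleukin-1-beta, had 3672, 3986, 1739 and 2365 CPM in LPS day 1 macrophages and 889, 801 and 1138 CPM in untreated macrophages. Il1b had a log2 fold change of 1.64 ± 0.26 (adjusted p = 0.00011). Il12a, a chain of interleukin-12, had 17.3, 16.2, 34.8 and 2.54 CPM in LPS day 1 macrophages and 0.038, 0 and 0 CPM in untreated macrophages. Its untreated level rests on 3 reads, which gave a ratio of 1106 with a 95% interval of 377 to 5372 for counting error alone. Tnf, tumour necrosis factor, had 440.04, 396, 561 and 567 CPM in LPS day 1 macrophages and 985, 898 and 1194 CPM in untreated macrophages, below every untreated library but not past the test. Tnf had a log2 fold change of -1.06 ± 0.37 (adjusted p = 0.093). Il6, interleukin-6, had 266, 307, 167 and 244 CPM in LPS day 1 macrophages and 51.4, 15.9 and 18.3 CPM in untreated macrophages, above every untreated library but not past the test. Il6 had a log2 fold change of 3.11 ± 1.14 (adjusted p = 0.12). Il1a and Il1rn, interleukin-1-alpha and the natural antagonist of its receptor, were likewise higher in every library without passing (log2 fold change 0.99 ± 0.37, adjusted p = 0.12 for Il1a; log2 fold change 0.89 ± 0.34, adjusted p = 0.12 for Il1rn).

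Chemokines for neutrophils, T cells and monocytes rose in part. Of 22 tested, 8 rose (36.4%, against 3.22% of all genes tested) and none fell, with a median log2 fold change of 2.08. Of these genes 5 rose without LPS day 1 replicate 1 or 2 and 3 without untreated replicate 1 or 2. Cxcl3, a ligand of CXCR2 that attracts neutrophils, had 5383, 5873, 2302 and 4451 CPM in LPS day 1 macrophages and 100.5, 56.8 and 67.2 CPM in untreated macrophages (log2 fold change 5.91 ± 0.66, adjusted p = 2.9e-06), and its gene lies at chr5:90786103-90789600. The neighbouring Cxcl2, at chr5:90903871-90905938, which encodes another ligand of CXCR2, had 3044, 3118, 1982 and 3240.2 CPM at LPS day 1 and 2008, 961 and 1469.6 CPM untreated and did not pass. Cxcl2 had a log2 fold change of 0.94 ± 0.40 (adjusted p = 0.17). Cxcl9, a ligand of CXCR3 that attracts T cells and is induced by interferon-gamma, had 685, 809.8, 133 and 745 CPM in LPS day 1 macrophages and 3.73, 2.48 and 4.89 CPM in untreated macrophages. Cxcl9 had a log2 fold change of 7.33 ± 0.85 (adjusted p = 4.3e-06). Replicate 3 was the lowest LPS day 1 library for Cxcl9, although it was still above every untreated library. Cxcl10, its neighbour at chr5:92346638-92348889 and also a CXCR3 ligand, had 416, 459, 231 and 572 CPM at LPS day 1 and 33.1, 99.5 and 141 CPM untreated. Cxcl10 had a log2 fold change of 2.20 ± 0.64 (adjusted p = 0.041). Ccl9, a ligand of CCR1, had 2533, 2979.6, 1794 and 1995 CPM in LPS day 1 macrophages and 138, 64.9 and 144 CPM in untreated macrophages. Ccl9 had a log2 fold change of 4.33 ± 0.47 (adjusted p = 1.2e-06). Ccl5, which attracts T cells and monocytes, had 131, 167, 363 and 145 CPM at LPS day 1 and 14.7, 29.7 and 70.3 CPM untreated. Ccl5 had a log2 fold change of 2.40 ± 0.65 (adjusted p = 0.026). The calls of Cxcl10 and Ccl5 were lost, for Cxcl10 without each of LPS day 1 replicates 1, 2 and 4 and untreated replicates 1, 2 and 3 (adjusted p = 0.057 to 0.22) and for Ccl5 without each of LPS day 1 replicate 3 and untreated replicates 1 and 2 (adjusted p = 0.074 to 0.17).

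Of 10 genes of arginine use, nitric oxide and itaconate, 6 rose (60%) and 1 fell (10%), against 3.22% and 3.06% of all genes tested. Acod1, which makes itaconate from a citric acid cycle intermediate, had 1476, 1364, 785 and 984 CPM in LPS day 1 macrophages and 7.09, 12.6 and 20.2 CPM in untreated macrophages. Acod1 had a log2 fold change of 6.44 ± 0.58 (adjusted p = 7.8e-08). Ass1, which regenerates arginine from citrulline, had 408, 394, 298 and 359.99 CPM in LPS day 1 macrophages and 5.02, 15.4 and 15.9 CPM in untreated macrophages. Ass1 had a log2 fold change of 4.92 ± 0.52 (adjusted p = 7.8e-07). Arg1, the arginase that competes with Nos2 for the same substrate, rose as well (64.7, 53.7, 115 and 24.8 CPM at LPS day 1, against 0.764, 0.587 and 0.819 CPM untreated; log2 fold change 6.48 ± 1.30, adjusted p = 0.0027). With Nos2 and the carrier Slc7a2 described above, uptake, recycling and both routes of arginine use had members that were higher at LPS day 1. Gch1, which makes a cofactor of nitric oxide synthase, was higher in every library but did not pass. Gch1 had a log2 fold change of 1.01 ± 0.35 (adjusted p = 0.083).

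Enzymes of lipid mediators moved in opposite directions. Ptgs2, the inducible cyclooxygenase, had 525, 388, 237 and 182 CPM in LPS day 1 macrophages and 14.8, 29.1 and 35.5 CPM in untreated macrophages (log2 fold change 3.65 ± 0.61, adjusted p = 0.00036), and Ptges, the prostaglandin E synthase that follows it, had 383, 403, 346 and 247 CPM in LPS day 1 macrophages and 8.24, 15.5 and 16.7 CPM in untreated macrophages. Ptges had a log2 fold change of 4.68 ± 0.47 (adjusted p = 1.5e-07). Pla2g7, which hydrolyses platelet-activating factor, had 128, 157, 170.2 and 66.8 CPM at LPS day 1 and 2.34, 1.5 and 2.88 CPM untreated. Pla2g7 had a log2 fold change of 5.87 ± 0.44 (adjusted p = 1.4e-09). Against these, Alox5, the first enzyme of leukotriene synthesis, fell to 44.8, 29.2, 60.4 and 103 CPM at LPS day 1, against 451, 356 and 391 CPM untreated (log2 fold change -2.75 ± 0.35, adjusted p = 4.6e-06), and its activating protein Alox5ap fell too (106 ± 8.08 CPM at LPS day 1 and 229 ± 37.9 CPM untreated; log2 fold change -1.12 ± 0.24, adjusted p = 0.0031). These are the 5 called genes of the 13 tested in that list, 3 of them higher (23.1%) and 2 lower (15.4%). Of all genes tested, 3.22% were higher and 3.06% lower.

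Acute-phase and antimicrobial genes were among the steepest changes, with 8 of 16 higher (50%), none lower and a median log2 fold change of 2.53. Of all genes tested, 3.22% were higher. Lcn2, the lipocalin that withholds bacterial iron carriers, had 588, 702, 1813 and 945 CPM in LPS day 1 macrophages and 0.25, 1.02 and 0.593 CPM in untreated macrophages. Lcn2 had a log2 fold change of 10.65 ± 1.02 (adjusted p = 4e-07). Replicate 3, which was the lowest LPS day 1 library for many interferon-stimulated genes, was the highest for Lcn2. Hp, haptoglobin, the scavenger of free haemoglobin, had 429, 516, 369 and 317 CPM in LPS day 1 macrophages and 2.54, 2.64 and 1.41 CPM in untreated macrophages (log2 fold change 7.52 ± 0.45, adjusted p = 3.4e-11), and Saa3, a serum amyloid A protein made by macrophages, had 307, 429, 335 and 119 CPM in LPS day 1 macrophages and 0.25, 1.75 and 3.16 CPM in untreated macrophages. Saa3 had a log2 fold change of 7.47 ± 1.08 (adjusted p = 9e-05). Complement genes were among those that rose. C3, the central component, had 1582, 1431, 1039 and 1603 CPM at LPS day 1 and 313, 213 and 173 CPM untreated (log2 fold change 2.60 ± 0.35, adjusted p = 1.4e-05), and Cfb, factor B of the alternative pathway, had 177, 123, 95.6 and 144 CPM at LPS day 1 and 4.59, 3.24 and 0.198 CPM untreated. Cfb had a log2 fold change of 5.64 ± 0.64 (adjusted p = 9.7e-07). Iron handling rose in 5 of 12 genes (41.7%, against 3.22% of all genes tested), with none lower. Fth1, the ferritin heavy chain that stores iron, had 28166, 33244, 27127 and 22303 CPM in LPS day 1 macrophages and 7646, 6858 and 10624 CPM in untreated macrophages. Fth1 had a log2 fold change of 1.73 ± 0.24 (adjusted p = 1.8e-05). Slc11a1, the phagosomal metal transporter that governs resistance to some intracellular bacteria in mice, had 135, 135, 235 and 105 CPM at LPS day 1 and 6.51, 4.48 and 8.73 CPM untreated (log2 fold change 4.54 ± 0.38, adjusted p = 5.6e-09), and Slc11a2, its endosomal relative, had 88.5, 97.4, 80.7 and 95.9 CPM at LPS day 1 and 15.2, 23.7 and 16.5 CPM untreated. Slc11a2 had a log2 fold change of 2.29 ± 0.33 (adjusted p = 2.8e-05).

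Glycolysis and antioxidant lists had called rises and no called fall. Of 20 glycolysis and hypoxia genes 9 rose (45%, against 3.22% of all genes tested), with a median log2 fold change of 0.82. Slc2a1, the glucose carrier GLUT1, had 222, 225, 285 and 175 CPM in LPS day 1 macrophages and 26.6, 32.2 and 37.3 CPM in untreated macrophages. Slc2a1 had a log2 fold change of 2.82 ± 0.31 (adjusted p = 5.4e-07). Pfkl, a phosphofructokinase of the committed step, had 249, 207, 263 and 262 CPM at LPS day 1 and 50.6, 44.2 and 56.8 CPM untreated (log2 fold change 2.28 ± 0.40, adjusted p = 0.00044), and Hk3, a hexokinase, had 270.4, 275, 152 and 199 CPM at LPS day 1 and 54.8, 47.1 and 45.8 CPM untreated. Hk3 had a log2 fold change of 2.19 ± 0.34 (adjusted p = 7.3e-05). Of 21 genes of the NRF2, glutathione and NADPH oxidase list 7 rose (33.3%, against 3.22% of all genes tested), none fell and 14 did not pass. The median log2 fold change of this list was 0.28, and 4 of its genes rose without untreated replicate 1 or 2. Sod2, the mitochondrial superoxide dismutase, had 1715, 1998, 1229 and 1310.2 CPM in LPS day 1 macrophages and 137, 164 and 207 CPM in untreated macrophages (log2 fold change 3.21 ± 0.29, adjusted p = 2.1e-08), and Slc7a11, the cystine carrier that feeds glutathione synthesis, had 448, 427, 392 and 314 CPM at LPS day 1 and 31.2, 55.1 and 43.8 CPM untreated. Slc7a11 had a log2 fold change of 3.19 ± 0.44 (adjusted p = 2.5e-05). Cybb, the catalytic chain of the phagocyte oxidase, rose by less (3452 ± 379 CPM at LPS day 1 and 1355 ± 228 CPM untreated; log2 fold change 1.35 ± 0.23, adjusted p = 0.00027).

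Mitochondrial, lipid and organelle lists were read against the 3.22% of all tested genes called higher and the 3.06% called lower. Oxidative phosphorylation had 4 of 26 genes (15.4%) higher and none lower. Mitochondrial fatty acid oxidation had 1 of 19 higher and 1 lower. None of 21 sterol genes was called with edgeR, 0 had an unadjusted p under 0.05, and DESeq2 called 0. Of these 21 sterol genes 8 were above every untreated library in every LPS day 1 library, against 9.36% of all genes tested. With the 14 resident macrophage libraries fitted alone 5 sterol genes were called higher, and 2 with the 7 compared libraries alone. Among 28 peroxisome genes 3 (10.7%) were lower. In the list of lipid handling, with 3 of 21 higher and 4 lower, Abcg1, the cholesterol exporter that keeps these cells free of lipid overload, fell to 528, 490.3, 769 and 1038 CPM at LPS day 1, against 2513, 2148 and 2044 CPM untreated. Abcg1 had a log2 fold change of -1.66 ± 0.23 (adjusted p = 1.5e-05). Among 30 lysosome genes 5 (16.7%) rose and 1 fell. Cd63, a membrane protein of late endosomes, had 655, 674, 498 and 545 CPM at LPS day 1 and 95.2, 69.2 and 125 CPM untreated (log2 fold change 2.62 ± 0.35, adjusted p = 9.2e-06), and Ctsz, cathepsin Z, had 3370.4, 4169, 2362 and 2741 CPM at LPS day 1 and 926, 849 and 1228 CPM untreated. Ctsz had a log2 fold change of 1.66 ± 0.21 (adjusted p = 3.9e-06). The unfolded protein response had 5 of 17 genes (29.4%) higher and none lower, with Hspa5, the chaperone BiP, at 2358 ± 563 CPM at LPS day 1 and 1293 ± 122 CPM untreated. Hspa5 had a log2 fold change of 0.87 ± 0.19 (adjusted p = 0.0039). Several of these small counts shrank when 1 library was left out. Without untreated replicate 1 or 2, 1 oxidative phosphorylation gene, 3 lysosome genes and 2 genes of the unfolded protein response rose, and 0 or 1 peroxisome genes fell. Without LPS day 1 replicate 1 or 2, 1 oxidative phosphorylation gene and 3 genes of the unfolded protein response rose and 1 peroxisome gene fell. Without untreated replicate 3, 3 genes of the unfolded protein response rose. Without untreated replicate 1, 2 genes of lipid handling fell.

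Surface receptors for complement, antibodies and dying cells changed unevenly. Itgam, the integrin chain CD11b, which resident alveolar macrophages carry little of and recruited cells carry much of, had 401, 366, 258 and 205 CPM in LPS day 1 macrophages and 1.99, 1.66 and 0.48 CPM in untreated macrophages. Itgam had a log2 fold change of 7.77 ± 0.56 (adjusted p = 1.4e-09). Msr1, the class A scavenger receptor, had 137, 124, 144 and 83 CPM at LPS day 1 and 15.4, 11.6 and 13.1 CPM untreated. Msr1 had a log2 fold change of 3.19 ± 0.34 (adjusted p = 3.4e-07). In all, 7 of 20 receptor genes rose (35%) and 2 fell (10%), against 3.22% and 3.06% of all genes tested. C5ar1, the receptor for the anaphylatoxin C5a, fell to 65.1, 62, 169.6 and 109.7 CPM at LPS day 1, against 408, 331 and 409 CPM untreated. C5ar1 had a log2 fold change of -1.91 ± 0.26 (adjusted p = 1.6e-05). In the list for clearance of dying cells 4 of 18 rose (22.2%) and 3 fell (16.7%), read against the same shares. In this list 0 or 1 fell without any LPS day 1 library but replicate 4 or without untreated replicate 1 or 2. The 3 genes of C1q, which tags debris for uptake, rose: C1qa had 33.5, 38.2, 46.3 and 38.8 CPM at LPS day 1 and 2.19, 3.94 and 5.99 CPM untreated (log2 fold change 3.29 ± 0.51, adjusted p = 0.00015), C1qb had 44.5, 70.3, 83 and 47.2 CPM at LPS day 1 and 3.92, 4.18 and 6.81 CPM untreated (log2 fold change 3.63 ± 0.55, adjusted p = 0.00013), and C1qc had 20.7, 36.8, 48.7 and 33.3 CPM at LPS day 1 and 1.73, 2.16 and 4.69 CPM untreated. C1qc had a log2 fold change of 3.62 ± 0.64 (adjusted p = 0.00069). Stab1, a scavenger receptor that also binds phosphatidylserine, had 56.9, 58.3, 122 and 35.3 CPM at LPS day 1 and 2.57, 4.14 and 1.75 CPM untreated. Stab1 had a log2 fold change of 4.58 ± 0.58 (adjusted p = 1.3e-05). Axl, the receptor tyrosine kinase for bridged phosphatidylserine, was lower in every library without passing (987 ± 232 CPM at LPS day 1 and 1863 ± 381 CPM untreated; log2 fold change -0.92 ± 0.44, adjusted p = 0.24).

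Of 21 macrophage transcription factors 5 fell (23.8%) and 1 rose (4.76%), against 3.06% and 3.22% of all genes tested. Without untreated replicate 1, 3 fell. Cebpa, a factor of the myeloid lineage, fell to 226, 151, 253 and 256 CPM at LPS day 1, against 737, 601 and 643 CPM untreated. Cebpa had a log2 fold change of -1.57 ± 0.27 (adjusted p = 0.00034). Rxra, the partner of PPAR-gamma, fell too (158, 99.6, 166 and 199.6 CPM at LPS day 1, against 459, 428 and 313 CPM untreated; log2 fold change -1.36 ± 0.22, adjusted p = 0.00016). Spi1, which encodes the myeloid master regulator PU.1, was lower in every library but did not pass (454 ± 43 CPM at LPS day 1 and 657 ± 171 CPM untreated; log2 fold change -0.53 ± 0.19, adjusted p = 0.098).

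Genes known to respond to the dissociation of tissue were lower at LPS day 1. Of 18, 9 fell (50%) and 1 rose (5.56%), against 3.06% and 3.22% of all genes tested, with a median log2 fold change of -1.08. Btg2, an antiproliferative early response gene, had 198, 202, 228 and 229.6 CPM in LPS day 1 macrophages and 910.4, 629 and 689 CPM in untreated macrophages (log2 fold change -1.79 ± 0.28, adjusted p = 9.7e-05), and Fosb, a subunit of AP-1, had 328, 264, 286 and 542 CPM in LPS day 1 macrophages and 2471, 905 and 1077 CPM in untreated macrophages. Fosb had a log2 fold change of -2.06 ± 0.38 (adjusted p = 0.001). Untreated replicate 1 was the highest of the 7 libraries in both. Ier3, a target of NF-kB, rose instead (539.5, 572, 320.01 and 267 CPM at LPS day 1, against 71.3, 56.2 and 85.3 CPM untreated; log2 fold change 2.58 ± 0.31, adjusted p = 2.7e-06). Treatment and name prefix cannot be told apart for these genes either. At LPS day 3, within the prefix of LPS day 1, Btg2 had 224, 157 and 190.3 CPM and Fosb had 358, 421 and 568 CPM, while at LPS day 7 Btg2 had 356, 431, 536 and 416 CPM and Fosb 1002, 1029.7, 1239 and 1132 CPM.

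Cell cycle genes were mostly lower at LPS day 1. Of 25, 3 fell (12%, against 3.06% of all genes tested) and none rose, with 1 fall left without any library but LPS day 1 replicate 4 or untreated replicate 3. The median log2 fold change was -2.40, and 17 of the 25 were below every untreated library in every LPS day 1 library, against 21.2% of all genes tested. Top2a, the topoisomerase of dividing cells, had 6.4, 18.3, 11.5 and 18.9 CPM in LPS day 1 macrophages and 106, 95 and 60.2 CPM in untreated macrophages. Top2a had a log2 fold change of -2.66 ± 0.54 (adjusted p = 0.0018). Bub1, a checkpoint kinase of mitosis, and Kif20a, a motor of cell division, had counts in LPS day 1 replicate 4 alone, at 0.847 and 1.46 CPM, against 19.9, 14.9 and 12 CPM and 16.3, 15.8 and 11.4 CPM untreated. The call was lost for Bub1 without each of LPS day 1 replicates 1, 2 and 3 and untreated replicates 1 and 2 (adjusted p = 0.059 to 0.083) and for Kif20a without each of LPS day 1 replicates 1, 2 and 3 and untreated replicates 1 and 2 (adjusted p = 0.051 to 0.068). Mki67, the proliferation marker Ki-67, had 161, 81.5, 121 and 67.6 CPM in LPS day 1 macrophages and 181, 171 and 86.1 CPM in untreated macrophages, an overlapping range. Mki67 had a log2 fold change of -0.44 ± 0.29 (adjusted p = 0.44). Histone RNA, taken by the gene names of the replication-dependent clusters, summed to 54.4 to 88.0 CPM at LPS day 1 and 227 to 328 CPM untreated. It summed to 69.9 to 145 CPM at LPS day 3 and 202 to 224 CPM at LPS day 7. The libraries were poly(A)-selected, so this sum may depend on the selection as well as on the cells, which was not tested. Most members of the cell cycle list had low levels, and the share of low genes at 0 counts was high in LPS day 1 replicates 1 to 3. The part of such zeros in these values was not tested.

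In the lists described with no fall, 0 members had a lower value with an unadjusted p under 0.05 in the antiviral, GTPase, MHC class I, acute-phase, oxidative phosphorylation, glycolysis, NRF2, iron and unfolded protein response lists. In the others 3 did among pattern receptors, 2 among cytokines, 1 among chemokines and 1 among IRF and STAT factors. DESeq2 called 1 fall among pattern receptors and 1 among IRF and STAT factors, and none in the other lists just named. Among cell cycle genes 0 had a higher value with an unadjusted p under 0.05, and DESeq2 called none higher and 9 lower.

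**Figure D3:**
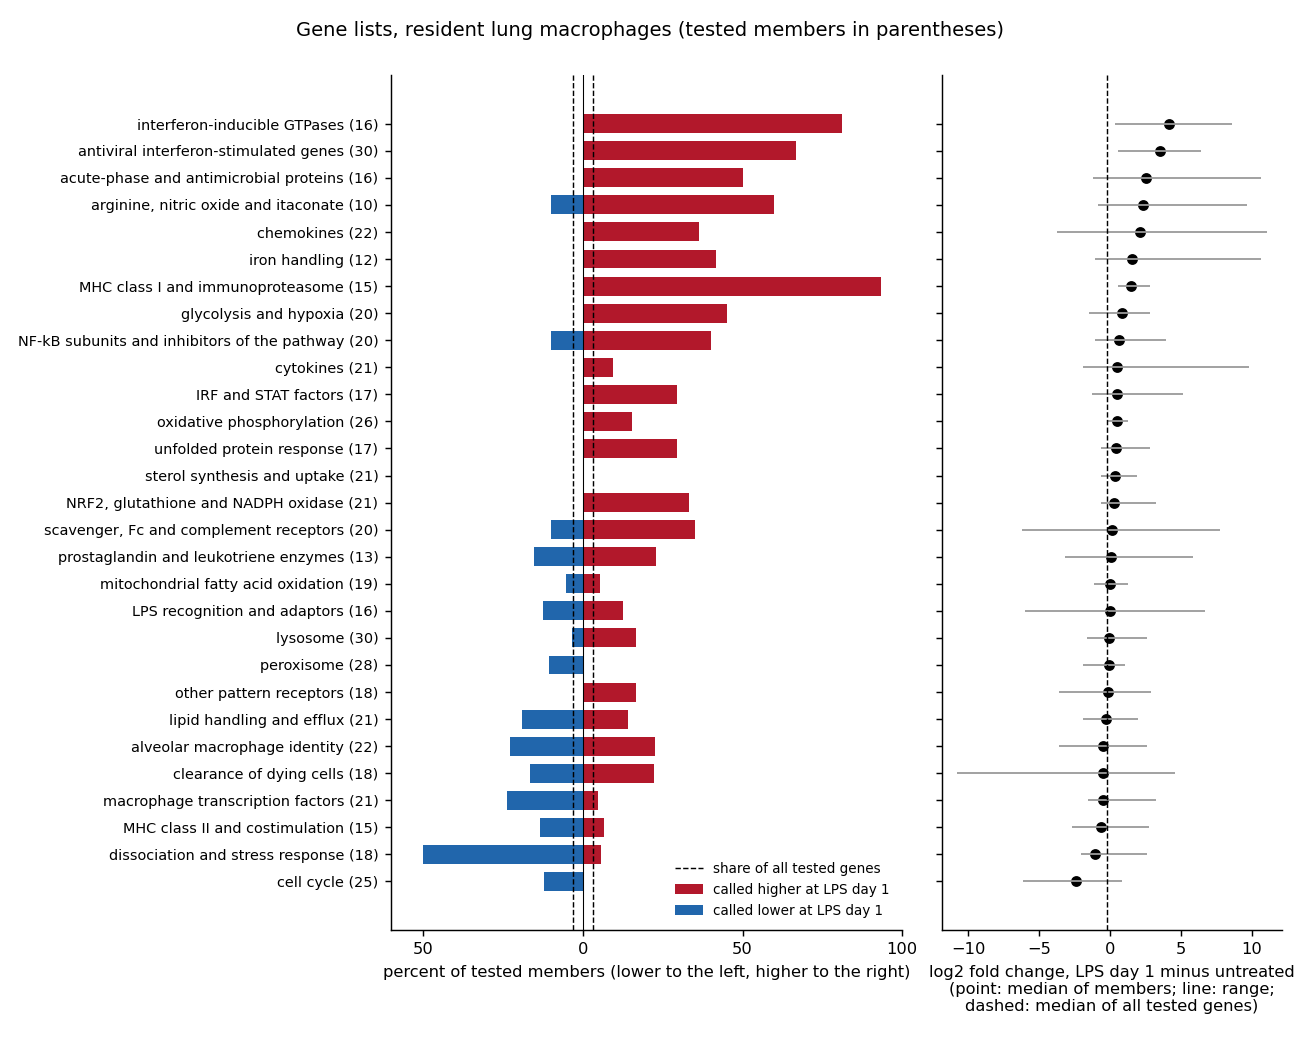
Left, percent of tested members of each gene list called higher (red, to the right) or lower (blue, to the left) at LPS day 1, with dashed lines at the shares of all tested genes, 3.22% and 3.06%. Right, median (point) and range (line) of the members' log2 fold changes, with a dashed line at the median of all tested genes; GTPases, antiviral genes and MHC class I have the largest shares called higher, and the dissociation list has the largest share called lower.

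Outside the lists, the 12 largest rises included several secreted proteins. Cbln1, a secreted protein of the C1q family best known from synapses of the cerebellum, had 399, 451, 88.9 and 252 CPM at LPS day 1 and 0 counts in all 3 untreated libraries, so that it was at least 20931-fold higher, with a floor of 3 counts over the untreated group. Serpina3f and Serpina3g, neighbouring serine protease inhibitors at chr12:104214544-104221129 and chr12:104236245-104241939, rose together. Serpina3f had 229.8, 287, 207 and 161 CPM at LPS day 1 and 0.363, 0.505 and 0.932 CPM untreated (log2 fold change 8.54 ± 1.03, adjusted p = 3.6e-06), and Serpina3g had 342, 385, 91.2 and 138 CPM at LPS day 1 and 0.576, 0.693 and 0.875 CPM untreated (log2 fold change 8.38 ± 0.84, adjusted p = 1.5e-07), although reads of such paralogs could be split in counting. Upp1, which breaks down uridine, had 84, 104, 101 and 33.6 CPM at LPS day 1 and 0.15, 0.106 and 0 CPM untreated. Upp1 had a log2 fold change of 9.66 ± 1.00 (adjusted p = 1.8e-07). Tarm1, an activating receptor of myeloid cells, had 52.3, 53, 63.2 and 19.2 CPM at LPS day 1 and 0.213, 0 and 0 CPM untreated (log2 fold change 9.14 ± 1.37, adjusted p = 5e-05). Its untreated level rests on 17 reads, all in replicate 1, and its log2 fold change was 8.54 to 12.85 with 1 library left out, so the size of the fold is uncertain. Ly6i, a Ly6 surface protein with close paralogs, had 143, 109, 47.6 and 109.9 CPM at LPS day 1 and 0.363, 0.094 and 0.085 CPM untreated. Ly6i had a log2 fold change of 9.03 ± 0.72 (adjusted p = 9e-09). Ptx3, a secreted pattern recognition protein, had 25.8, 23.7, 39.3 and 10.4 CPM at LPS day 1 and 0 counts untreated, at least 1592-fold higher, and its call was lost without each of untreated replicates 1 and 2 (adjusted p = 0.061 to 0.064). Inhba and Mmp14, which were chosen after their values were seen, belong to the same range. Inhba, the chain of activin A, had 2612, 2945, 694 and 1578 CPM in LPS day 1 macrophages and 32.9, 24.6 and 24.9 CPM in untreated macrophages (log2 fold change 6.15 ± 0.79, adjusted p = 1.9e-05), and Mmp14, a membrane-bound matrix protease, had 914, 1159, 571 and 633 CPM in LPS day 1 macrophages and 3.64, 6.43 and 14.5 CPM in untreated macrophages. Mmp14 had a log2 fold change of 6.65 ± 0.47 (adjusted p = 9.9e-10).

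The 12 largest falls were genes with 0 counts in all 4 LPS day 1 libraries and low levels untreated. In all, 90 of the genes called lower had 0 counts in every LPS day 1 library, while 14 of those called higher had 0 counts in every untreated library. Dbn1, an actin-binding protein, had 9.83, 18.2 and 28.5 CPM untreated and was at least 275-fold lower at LPS day 1, a bound for counting error alone. Nek2 and Brip1, a mitotic kinase and a helicase of DNA repair, had 12.4, 8.74 and 5.45 CPM and 10.1, 8.21 and 7.71 CPM untreated. By the same kind of bound they were at least 158-fold and 146-fold lower. Lymphocyte genes were also among these 12. Cd8a, the CD8 chain of cytotoxic T cells, had 7.7, 7.08 and 12.6 CPM untreated, Bcl11b, a T cell transcription factor, had 6.55, 10.7 and 5.9 CPM, and Fcer2a, the low-affinity IgE receptor of B cells, had 5.53, 8.81 and 6.83 CPM. Timd4, a phosphatidylserine receptor of some resident macrophages, had 3.12, 8.59 and 18.6 CPM untreated. Calls were lost for Cd8a without each of LPS day 1 replicates 1, 2, 3 and 4 and untreated replicates 1, 2 and 3 (adjusted p = 0.057 to 0.079), for Fcer2a without each of LPS day 1 replicates 1, 2, 3 and 4 and untreated replicates 1, 2 and 3 (adjusted p = 0.057 to 0.088) and for Timd4 without each of LPS day 1 replicates 1 and 2 (adjusted p = 0.053 to 0.055). Such zeros come from libraries with 9176202 to 15073686 counts, and 3 counts over the group correspond to 0.0606 CPM. Of the 3150 genes with a mean of 5 to 20 CPM untreated, 6.48%, 18.1%, 21.2% and 2.76% had 0 counts in LPS day 1 replicates 1 to 4. The folds could therefore be smaller than these bounds.

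Markers of other cell types were measured in all 7 libraries as sums over each list. Neutrophil markers summed to 109 to 604 CPM at LPS day 1 and 74.9 to 94.2 CPM untreated. Of 12 tested members 3 rose (25%, against 3.22% of all genes tested), or 1 or 2 without LPS day 1 replicate 1 or 2 or any untreated replicate. S100a8, a calcium-binding protein abundant in neutrophils, had 139, 188, 67.4 and 36.3 CPM in LPS day 1 macrophages and 4.36, 2.76 and 3.92 CPM in untreated macrophages (log2 fold change 4.87 ± 0.78, adjusted p = 0.00026), highest in LPS day 1 replicates 1 and 2, while Ly6g, which defines mouse neutrophils, was at 1.32 CPM in LPS day 1 replicate 1 and at 0 in the other 6 libraries. Monocyte markers summed to 1285 to 2491 CPM at LPS day 1 and 1925 to 2853 CPM untreated. This list went both ways. Of 14 members 3 rose (21.4%) and 3 fell (21.4%), against 3.22% and 3.06% of all genes tested. Its median log2 fold change was -0.54, and 6 members had a higher and 8 a lower mean at LPS day 1. Ly6c2, a surface protein of classical monocytes, rose (68.7, 74, 91 and 46.5 CPM at LPS day 1, against 5.53, 4.42 and 7.85 CPM untreated; log2 fold change 3.56 ± 0.59, adjusted p = 0.00033), whereas Ccr2, their chemokine receptor, overlapped (20.8, 5.45, 56 and 30.6 CPM at LPS day 1 and 39.5, 54.1 and 63.2 CPM untreated; log2 fold change -0.89 ± 0.57, adjusted p = 0.42). Markers of monocyte-derived and tissue macrophages summed to 1593 to 2541 CPM at LPS day 1 and 1285 to 1486 CPM untreated. The C1q genes are members of this list, so they add to its sum. Among the LPS day 1 libraries the sum was highest in replicate 3 (2541 CPM). The C1q genes, Stab1, Ly6c2 and Ccr2 were also highest in that library among those of LPS day 1, while Itgam and S100a8 were not. The part of such cells in the rises of Itgam and the C1q genes was not tested.

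Lymphoid and dendritic markers mostly had lower means at LPS day 1, and few passed the test. Epithelial markers summed to 76.7 to 117 CPM at LPS day 1 and 255 to 386 CPM untreated. Of the 15, 6 had a higher and 9 a lower mean at LPS day 1, and 1 was called lower (6.67%, against 3.06% of all genes tested). The most abundant member averaged 20 CPM at LPS day 1, 153 CPM untreated and 169 CPM at LPS day 7. Its fall at LPS day 1 did not pass the test (adjusted p = 0.215). B cell markers summed to 5.93 to 163 CPM at LPS day 1 and 227 to 287 CPM untreated, and 0 of 9 had a higher mean at LPS day 1. Of these 9, 0 were called, 0 had an unadjusted p under 0.05, and DESeq2 called 0. Dendritic cell markers summed to 13.9 to 56.1 CPM at LPS day 1 and 136 to 378 CPM untreated, again with 0 of 9 higher in mean. Of these 9, 1 was called lower (11.1%, against 3.06% of all genes tested). Xcr1, the receptor that defines cross-presenting dendritic cells, had 0, 0, 0 and 0.616 CPM at LPS day 1 and 12.3, 21.8 and 33.3 CPM untreated, and its call (log2 fold change -7.12 ± 2.02, adjusted p = 0.031) was lost without each of LPS day 1 replicates 1, 2 and 3 and untreated replicates 1, 2 and 3 (adjusted p = 0.062 to 0.094). T and NK cell markers summed to 153 to 386 CPM at LPS day 1 and 70.6 to 167 CPM untreated, and the higher sum was carried by Ccl5, described among the chemokines and also made by T and NK cells. Without Ccl5 the sum was 8.47 to 43.3 CPM at LPS day 1 and 55.9 to 97.1 CPM untreated, and 12 of the 14 members had a lower mean at LPS day 1. Of the 14, 2 were called lower (14.3%) and 1 higher (7.14%), against 3.06% and 3.22% of all genes tested. Endothelial and fibroblast markers overlapped, at 23.6 to 77.5 CPM and 39.2 to 85.8 CPM. Markers of eosinophils and mast cells, which could also carry Siglecf, were at 0 at LPS day 1 and summed to 0.593 to 0.904 CPM untreated. Pf4, a platelet chemokine that some macrophages also express, rose (68.1, 71, 70.8 and 76 CPM at LPS day 1, against 1.6, 1.11 and 0.424 CPM untreated; log2 fold change 6.07 ± 0.65, adjusted p = 3.8e-07), and it made up nearly all of the erythroid and platelet sum at LPS day 1. The part of these other cells in the falls of lymphocyte genes was not tested.

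**Figure D4:**
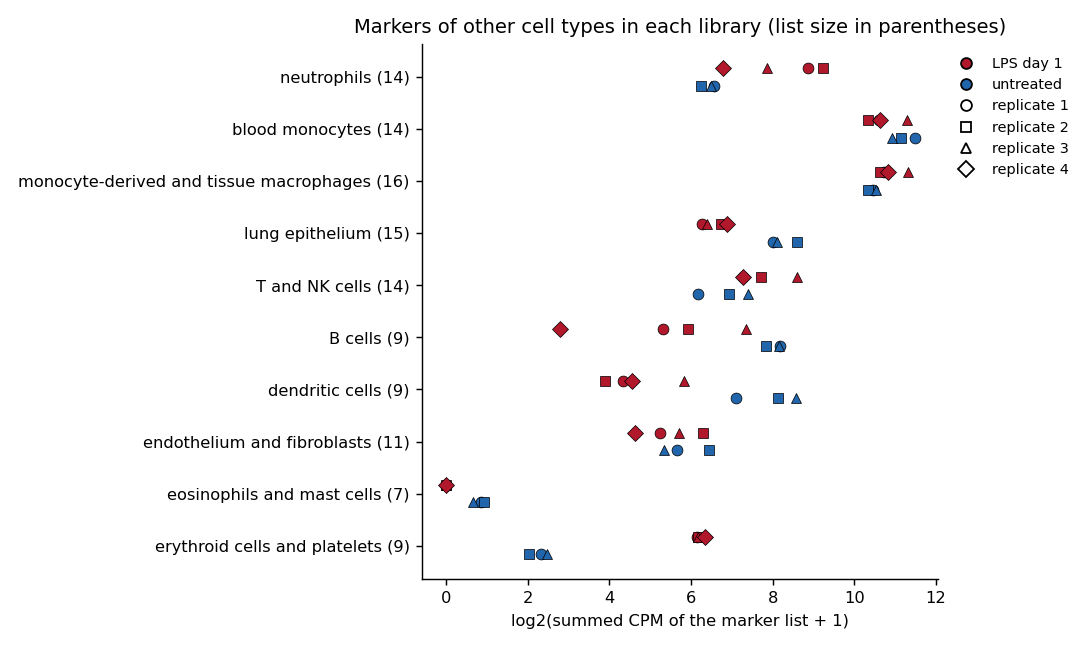
Summed level of each marker list as log2(summed CPM + 1) (horizontal axis) in each library, LPS day 1 (red) above untreated (blue), with symbols for replicates. Neutrophil sums are higher in all 4 LPS day 1 libraries, while B cell, dendritic and epithelial sums are lower in all 4.

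Levels of some genes at later days of LPS, within the prefix of LPS day 1, were set beside these results. Between LPS day 1 and LPS day 3, 143 of the 17143 genes (0.834%) were called, 36 higher (0.21%) and 107 lower (0.624%) at day 1. This comparison shares the LPS day 1 libraries with the main one. Cxcl3, Il1b, Il1a and Socs3 were among the genes higher at LPS day 1 than at LPS day 3. For Cxcl3, LPS day 3 libraries had 961, 454 and 528 CPM, below every LPS day 1 library (log2 fold change of day 1 over day 3 2.80 ± 0.56, adjusted p = 0.014). For Il1b they had 1083, 869 and 926 CPM (1.62 ± 0.26, adjusted p = 0.0015). For Il1a, LPS day 1 libraries had 1638, 1771, 1327 and 1667 CPM and LPS day 3 libraries 264, 438 and 387 CPM (2.14 ± 0.39, adjusted p = 0.0051). Socs3, 1 of 4 genes of the NF-kB list in this group, had 198, 281 and 300.2 CPM at LPS day 3 (1.54 ± 0.26, adjusted p = 0.0023). The calls of Il1b and Socs3 stood without each of the 7 libraries in turn, while that of Cxcl3 was lost without LPS day 3 replicate 2 (adjusted p = 0.17) or 3 (0.11) and that of Il1a without LPS day 3 replicate 1 (0.058).

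Other genes that had risen over untreated macrophages at LPS day 1 were higher still at LPS day 3. Saa3 had 1584, 6074 and 2516 CPM at LPS day 3 (-3.51 ± 0.80 for day 1 over day 3, adjusted p = 0.04), and Hp had 1179, 1399 and 1169 CPM (-1.62 ± 0.32, adjusted p = 0.011). Pla2g7 had 338, 844 and 414 CPM (-2.03 ± 0.34, adjusted p = 0.0023), and C1qa had 103, 370.1 and 109.9 CPM (-2.31 ± 0.45, adjusted p = 0.011). Ly6c2, the monocyte surface protein, had 339, 1189 and 430.4 CPM (-3.22 ± 0.53, adjusted p = 0.0026), and its call stood without each library in turn. The other 4 calls were lost without LPS day 3 replicate 2 (adjusted p = 0.057 for Pla2g7, 0.082 for Hp, 0.24 for C1qa and 0.31 for Saa3). That of C1qa was lost also without LPS day 1 replicate 1 (0.055), and that of Saa3 without any 1 of the 7 libraries (lowest adjusted p = 0.058). Without LPS day 3 replicate 2, 31 genes were called over the whole table. Monocyte markers summed to 3970 to 5878 CPM at LPS day 3, against 1285 to 2491 CPM at LPS day 1. Markers of monocyte-derived and tissue macrophages summed to 3476 to 9924 CPM, against 1593 to 2541 CPM. LPS day 3 replicate 2 had the highest sum in both lists, of which Ly6c2 and C1qa are members. The part of such cells in the higher levels at LPS day 3 was not tested.

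For the 4 marker genes no difference between LPS days 1 and 3 passed the test. Aoah averaged 112 ± 43.6 CPM at LPS day 1, 132 ± 33 CPM at LPS day 3 and 19 ± 2.94 CPM at LPS day 7 (SD, n = 4, 3 and 4), with a log2 fold change of day 1 over day 3 of -0.23 ± 0.26 (adjusted p = 0.96). Irf7 averaged 252 ± 53.3, 154 ± 66.5 and 8.61 ± 0.994 CPM at these days, and Nos2 averaged 118 ± 59.6, 155 ± 108 and 0.868 ± 0.271 CPM. Siglecf averaged 95.4 ± 35.8, 175 ± 59.9 and 519 ± 54.1 CPM, so that its LPS day 7 libraries, at 441, 548, 561 and 525 CPM, covered the range of the untreated libraries. Within the prefix of the resident LPS libraries, Irf7 and Nos2 were therefore lower, and Siglecf higher, in every LPS day 7 library than in every LPS day 1 library, a difference that was not tested. Genes called higher at LPS day 1 differed at LPS day 7. Acod1 averaged 21.2 CPM at LPS day 7 and 13.3 CPM untreated. Cybb averaged 3965 CPM at LPS day 7 and 1355 CPM untreated, C3 1172 and 233 CPM, and B2m 2577 and 1228 CPM. For genes that stayed high in all LPS groups, treatment and name prefix cannot be told apart. The LPS day 7 libraries held Y-linked RNA at no more than 4.09 CPM and Xist at 280 to 328 CPM, unlike the LPS day 1 libraries.

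**Figure D5:**
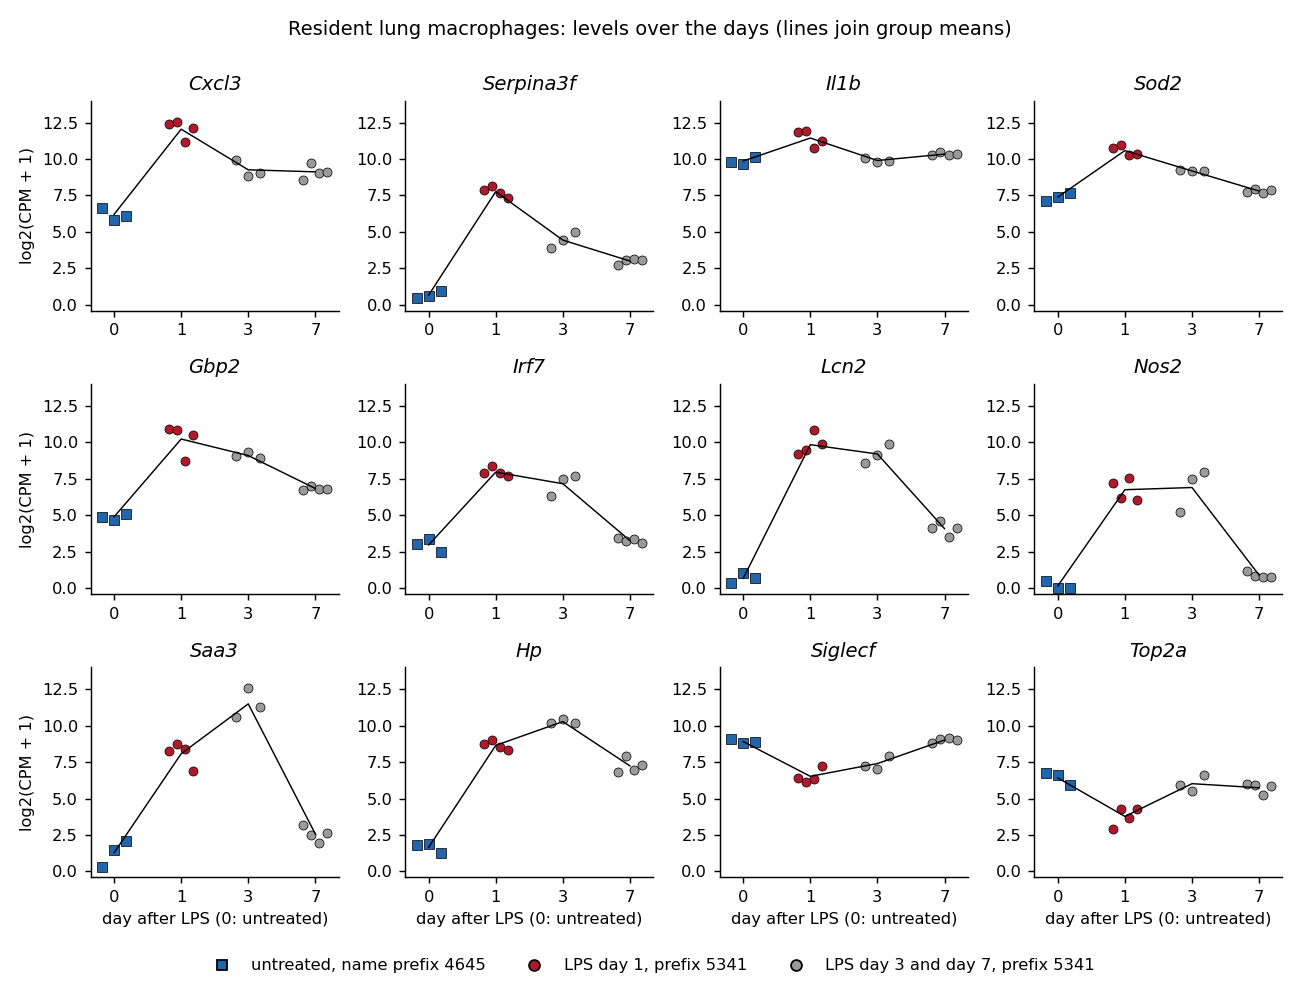
Level of 12 genes as log2(CPM + 1) in each resident macrophage library, untreated (day 0, blue squares, name prefix 4645) and at LPS days 1 (red), 3 and 7 (grey, prefix 5341), with lines joining group means. Cxcl3, Serpina3f, Il1b and Sod2 are highest at day 1, Saa3 and Hp are highest at day 3, and Siglecf is lowest at day 1.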

How the data were processed

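RNA from resident alveolar and bone marrow-derived lung macrophages of mice was sequenced in 26 libraries, as stranded poly(A)-selected libraries per the labels' protocols. The deposited values are raw read counts for 55487 Ensembl genes, on genome build GRCm38. The submitters' processing notes name HISAT2 2.1.0 and featureCounts 2.0.0, and also Trimmomatic 0.39 and FastQC 0.11.9. Their settings and counting strand are not given in the sources used here, so reads of overlapping, antisense or near-identical genes cannot be told apart. Symbols, positions and exon lengths come from GENCODE M21. The 37 mitochondrial genes have 0 counts throughout.

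All libraries were fitted in edgeR 4.0.16 (R 4.3.3), with 1 coefficient for each of the 7 groups, TMM scaling, filterByExpr with a minimum count of 10 (17143 genes, 99.9% of counts) and robust quasi-likelihood F tests, two-sided, with Benjamini-Hochberg adjustment over all genes tested; calls use a threshold of 0.05 on the adjusted p. CPM are on TMM-scaled library sizes. The fit was tested on simulated counts. DESeq2 1.42.0 and the other alternatives are given in the closing section. Where a group has 0 counts, a fold is a lower bound from a floor of 3 counts over that group, and bounds and intervals cover counting error alone.

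The comparison, the gene lists and the tests were chosen with earlier results of these data known. Genes were named by a rule: a fixed set of genes, in each list up to 6 called genes ranked by size of change, its most abundant gene and up to 3 genes not called, all at 5 CPM or more, the 12 largest rises and the 12 largest falls without overlap between groups, and the 5 most abundant genes per group. Not all of these are printed, and some results are not reported here. Isg15, Zbp1, C3, C5ar1, Inhba, Mmp14, Ly6g, Xist and Fabp4 were added after their values were seen. The promoter table lacks entries for some genes, Nos2 among them. No list was tested as a set.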

Additional observations from a re-analysis of the deposited data

Results flagged for a closer look

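In 12 of the 131 genes named, 1 of the 4 LPS day 1 libraries lay apart from the others by more than Dixon's 95% critical value on the log2(CPM + 1) scale, which chance exceeds in about 1 of 20 groups. In 7 of them the library apart was replicate 3. It was the lowest for Cxcl9 (133 CPM, others 685 to 809.8), Nlrc5 (39.6 CPM, others 118 to 145), Marco (967 CPM, others 1887 to 2145), Erap1 (86.2 CPM, others 150.3 to 163), Hspa5 (1514 CPM, others 2618 to 2672) and Cxcl2 (1982 CPM, others 3044 to 3240.2). It was the highest for Irak3 (171 CPM, others 117 to 125). Without replicate 3 the log2 fold changes of Cxcl9 and Nlrc5 were 7.66 and 2.19, with adjusted p of 7e-07 and 0.00011.

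Replicate 4 was apart in 4 genes. It was the lowest for Tarm1 (19.2 CPM, others 52.3 to 63.2), and it was the only LPS day 1 library with counts for Bub1 (0.847 CPM), Kif20a (1.46 CPM) and Xcr1 (0.616 CPM). Replicate 1 was the only LPS day 1 library with counts for Ly6g (1.32 CPM). For Bub1, Kif20a, Xcr1 and Ly6g the other LPS day 1 libraries were at 0, so a count in a single library is always flagged. The rate of 1 in 20 does not apply to these genes.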

How the results depend on the processing

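Of 106 genes named in the report as called, 70 kept their call under all 21 alternatives to the processing and none changed direction. For 91 the call stood without each of the 7 libraries in turn; the other 15 are named in the report beside their values. The replicate numbers of the labels did not pair the libraries, with correlations of -0.0164, -0.113 and -0.0700 between same-numbered deviations, and the fit with the replicate number as a block called 993 genes, 502 higher and 491 lower, in place of 1077. Against LPS day 3 the block called 103 genes in place of 143.

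The number of genes called moved by more than 1.5 times under these alternatives. The 7 compared libraries alone gave 1862 calls (962 higher, 900 lower), and the 14 resident macrophage libraries alone gave 3624 (1561 and 2063). LPS day 1 libraries numbered 7 and 8 alone gave 425 (295 and 130). A test against a log2 fold change of 1 gave 251 (190 and 61), and DESeq2 gave 2006 (904 and 1102). Without day 3 replicate 1 and day 1 replicate 3 of the bone marrow-derived macrophages, an alternative chosen after seeing the data, there were 2425 (1048 and 1377). Leaving out 1 library at a time gave 558 to 1118 calls, with 322 to 590 higher and 236 to 586 lower, fewest without untreated replicate 1. Against LPS day 3, DESeq2 called 809 genes, the fit without those 2 bone marrow-derived libraries 470, and leaving out 1 library at a time 31 to 138. The cause was not tested.

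Scaling by DESeq2's size factors, by library size alone, a filter of 5 CPM, no filter, a term for the library number and thinning the untreated libraries to the LPS day 1 depth left the count of calls within 1.5 times. By counting error alone, levels under 0.0606 CPM, or 3 counts over the group, cannot be told from 0 at the depth of the LPS day 1 libraries. Of genes at 5 to 20 CPM untreated, 6.48%, 18.1% and 21.2% had 0 counts in LPS day 1 replicates 1 to 3. In the LPS day 3 libraries the share was 2.51 to 2.92%, so the limit at LPS day 1 may be higher in practice.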
